A study of Homo sapiens with 12 samples.

Results

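The mRNAs of the translation factors were followed in the cytoplasmic RNA of U2OS cells, a human osteosarcoma cell line, after siRNA knock-down of 3 regulators of mRNA export. The members are all genes whose probe accession maps in RefSeq to a symbol beginning EIF or EEF, with ETF1, GSPT1, GSPT2, ABCE1, PABPC1 and PABPC4, and without the EIF2AK kinases and pseudogenes. This rule uses names and no measured value. It gave 70 genes of 27522 gene names on the array, read by 102 of 34127 probes. Of the 70 genes, 42 were placed with initiation, 10 with elongation, 4 with termination and recycling, and 14 with regulators and other genes that carry such a symbol. A gene was tested where its probe passed the scanner's call of well above background on each of the 3 arrays of some siRNA, which held for 68 genes. Their chosen probes passed it on all 12 arrays. EIF4E1B, a germ cell relative of EIF4E, and EEF1AKMT1, a lysine methyltransferase acting on eEF1A, were well above background on 0 of the 12 arrays and were not tested.

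Cells received 20 nM of a control siRNA or of siRNA against DBP5, GLE1 or IPPK, and cytoplasmic RNA was taken after lysis of the cells with detergent. Each of these 4 groups has 3 one-colour arrays, spread so that a slide carries 1 array per group, on 3 slides in all. The labels name the target of an siRNA and not its sequence, and a single cell line stands for all groups. The methods speak of independent experiments, but the labels name no separate cultures, so the p-values measure the spread between arrays. The labels give no other difference in genotype or treatment between the 4 groups. Whole-cell and nuclear RNA were not analysed here, so every value is a relative cytoplasmic level.

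Translation starts when initiation factors bring the small ribosomal subunit, the initiator tRNA and the capped mRNA together and scan for the start codon. Elongation factors then deliver aminoacyl-tRNAs and move the ribosome along, and release and recycling factors end the chain and split the subunits. DBP5 is a DEAD-box ATPase at the nuclear pore that strips proteins from exported mRNA, GLE1 activates it together with inositol hexakisphosphate, and IPPK is the kinase that makes this inositol phosphate. GLE1 and DBP5 are also known for roles in translation itself, DBP5 in termination beside eRF1 and GLE1 in initiation and termination.

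Each siRNA lowered its target. DDX19B, the gene of DBP5, differed from control by -3.96 on the log2 scale with DBP5 siRNA, GLE1 by -3.29 with GLE1 siRNA and IPPK by -2.43 with IPPK siRNA. GLE1 was dim, at 8.30, 8.32 and 8.26 on the control arrays and 5.43, 4.86 and 4.73 with GLE1 siRNA. The study reported smaller falls of GLE1 and IPPK from its own processing of these arrays. Of the targets of the other siRNAs, DDX19B was at 0.498 ± 0.0277 of control with GLE1 siRNA (adjusted p = 9.0e-08) and IPPK at log2 -1.25 with DBP5 siRNA (adjusted p = 8.3e-08). The difference of GLE1 with DBP5 siRNA, log2 -0.36, did not pass (adjusted p = 0.065). IPPK with GLE1 siRNA was at log2 -0.26 (adjusted p = 0.0038), and with IPPK siRNA DDX19B was at -0.20 and GLE1 at -0.49 (adjusted p = 0.012 and 0.019). DDX19A, the close relative of DDX19B, was at log2 -4.20, -0.85 and -1.73 with DBP5, GLE1 and IPPK siRNA (adjusted p = 3.5e-11, 1.5e-07 and 2.6e-09). Between 72.6% and 79.0% of the spots were well above background, lowest after IPPK siRNA. Of 7 osteoblast markers, 6 were well above background on all 12 arrays, COL1A2 being the other. Of 8 epithelial, blood and endothelial markers, 3 were (EPCAM, PTPRC and CDH5). The osteoblast markers were lower in 2, 1 and 3 cases and higher in 1, 1 and 1 with DBP5, GLE1 and IPPK siRNA, and the 7 tested of the 8 others lower in 1, 1 and 2 and higher in 1, 1 and 1. Of the osteoblast markers, COL1A1 differed from control by -0.36, 0.07 and -1.98 with DBP5, GLE1 and IPPK siRNA (adjusted p = 0.0037, 0.53 and 2.0e-08) and BGLAP by 1.28, 0.84 and 0.70 (adjusted p = 8.5e-09, 5.8e-08 and 3.6e-07). Of the epithelial markers, EPCAM differed by -0.61, -0.42 and -0.92 (adjusted p = 0.040, 0.13 and 0.0047) and CDH1, on 8 arrays, by 0.93, 3.29 and 1.28 (adjusted p = 0.0017, 1.0e-07 and 0.00019), while KRT20, on 5 arrays, was not tested. The part of other cell types in the results below was not tested. Of the nuclear-retained RNAs, MALAT1 differed from control by -0.54, -0.31 and -1.08 with DBP5, GLE1 and IPPK siRNA (adjusted p = 0.097, 0.32 and 0.0038) and KCNQ1OT1 by 0.66, 0.88 and 0.23 (adjusted p = 1.7e-05, 1.3e-06 and 0.019), while MEG3 was at -0.07, 0.35 and 0.05 (adjusted p = 0.62, 0.0088 and 0.70). The part of cell fractionation in the results below was not tested. Arrays give relative levels in a fixed amount of RNA, so fewer copies per cell and fewer cells expressing an mRNA cannot be told apart. The study reported that poly(A)+ RNA accumulated in the nucleus in each knock-down. A rise or fall below is therefore relative to the other cytoplasmic RNAs on the array, and copies per cell were not measured.

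Translation factor mRNAs moved in both directions in each knock-down. A gene is called here where limma's adjusted p over all 20821 genes tested is under 0.05. With DBP5 siRNA 18 of the 68 tested members were lower than control and 26 higher, while 27.1% of all genes were lower and 27.3% higher. With GLE1 siRNA 18 members were lower and 27 higher, against 30.4% and 32.0% of all genes. With IPPK siRNA 15 members were lower and 21 higher, against 28.2% and 27.3% of all genes. In percent of the 68 members, the lower shares were 26.5%, 26.5% and 22.1%, and the higher shares were 38.2%, 39.7% and 30.9%. All 3 comparisons share the control arrays. The shares of all genes are the ones to set beside the counts of each smaller group of members given further on.

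Of the class medians, termination and recycling with IPPK siRNA and elongation with GLE1 siRNA were the farthest from 0. Over the 41 initiation genes the median log2 difference from control was 0.08 ± 0.014 with DBP5 siRNA, 0.05 ± 0.037 with GLE1 siRNA and 0.04 ± 0.0062 with IPPK siRNA (SD of the medians on the 3 single arrays of the knock-down). The median of the group means need not lie among the medians of single arrays. Over the 10 elongation genes it was 0.13, 0.34 and 0.09, while the single arrays gave 0.17, 0.23 and 0.18 with DBP5 siRNA, 0.46, 0.32 and 0.28 with GLE1 siRNA and 0.16, 0.05 and 0.07 with IPPK siRNA. Over the 4 termination and recycling genes it was 0.24, -0.14 and 0.46. The single arrays gave 0.26, 0.31 and 0.15 with DBP5 siRNA, -0.13, -0.03 and -0.10 with GLE1 siRNA and 0.36, 0.51 and 0.50 with IPPK siRNA, and without GLE1 siRNA replicate 1 the GLE1 value was -0.066. The median over all genes was -0.02, 0.03 and -0.03. Scaling to the 75th percentile turned the initiation and elongation medians with IPPK siRNA to -0.039 and -0.019, and the authors' own values gave 0.0042 for initiation with GLE1 siRNA. For initiation with DBP5 siRNA the same settings gave 0.044 and 0.045. Without GLE1 siRNA replicate 1 the initiation median with GLE1 siRNA was 0.029. Single genes ran from -2.07 (EIF3A) to 2.16 (EIF3L).

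**Figure D1:**
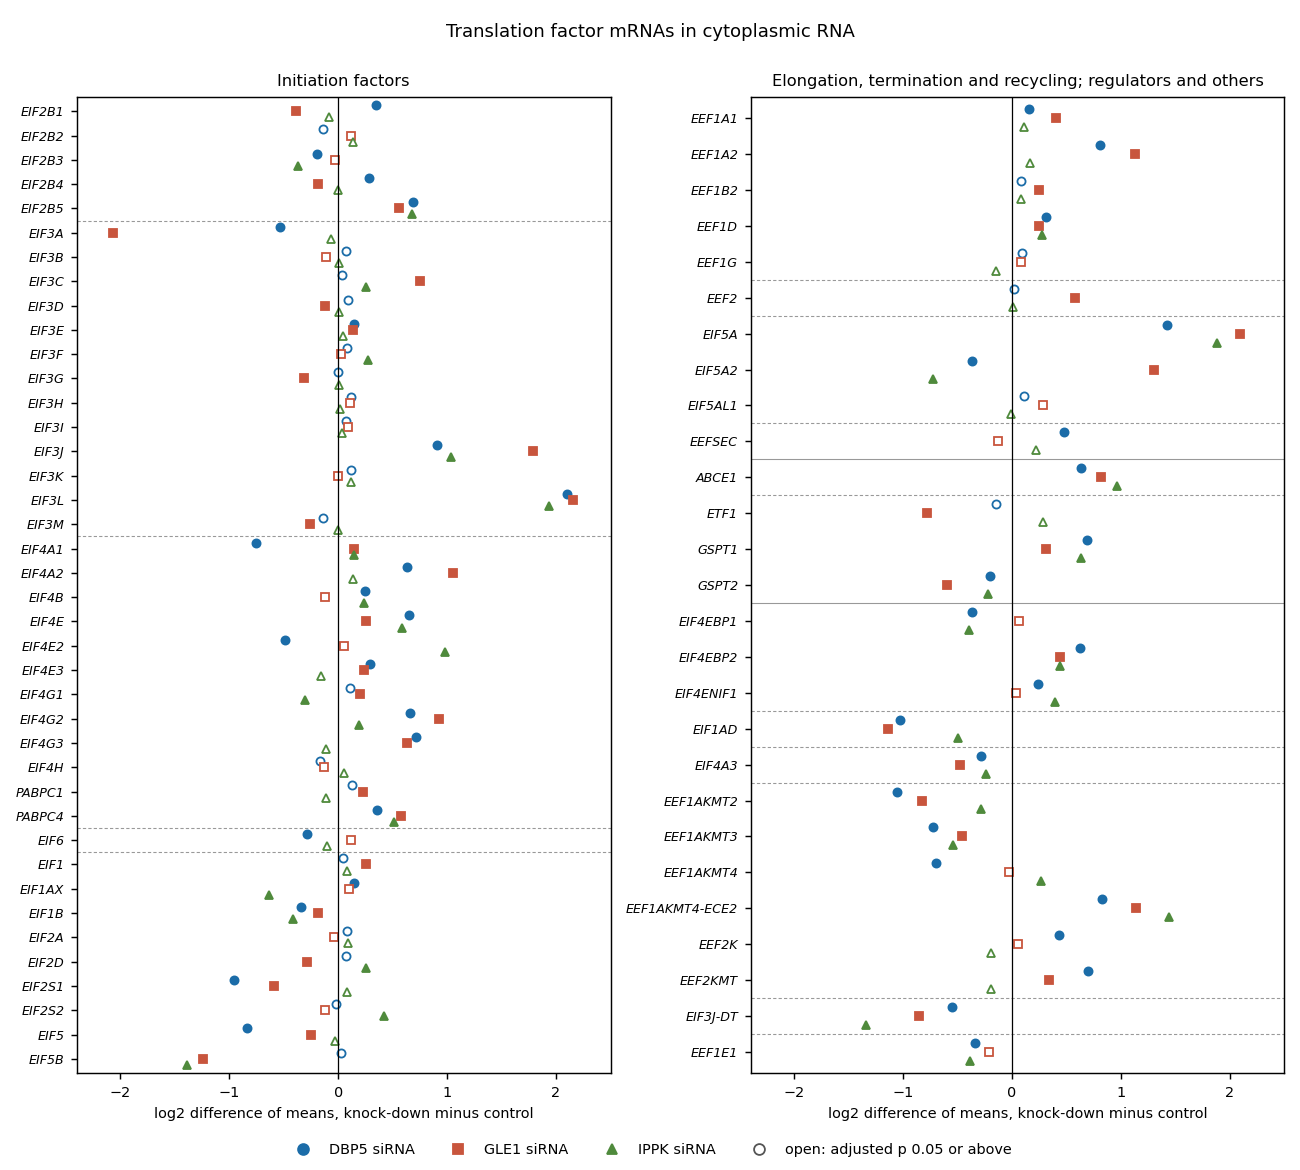
Log2 difference of the group means, knock-down minus control, for 67 tested translation factor genes (x axis, log2 units), with initiation genes at left and the other classes at right. Filled symbols have a limma adjusted p under 0.05 and dashed lines part the subgroups. EIF3L and EIF5A lie far to the right with every siRNA, EIF3A lies at -2.07 with GLE1 siRNA, and most eIF3 subunit genes lie close to 0.

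The eIF3 genes, 13 tested subunits of the complex that binds the small subunit and holds the initiation complex together, split into a quiet majority and a few large movers. With DBP5 siRNA 1 was lower and 3 higher, with GLE1 siRNA 4 and 4, and with IPPK siRNA 0 and 4. EIF3B, EIF3D, EIF3E, EIF3F, EIF3G, EIF3H, EIF3I, EIF3K and EIF3M had log2 differences between -0.31 and 0.27 in all 3 comparisons. EIF3H, EIF3I, EIF3B and EIF3K passed the test in none of them, with values of 0.12, 0.11 and 0.02 for EIF3H and 0.07, 0.09 and 0.03 for EIF3I.

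EIF3L, a subunit at the periphery of the complex, had the largest rise of all members in each knock-down. Its log2 intensity was 12.87, 12.81 and 12.79 on the control arrays, 14.90, 14.98 and 14.90 with DBP5 siRNA, 15.09, 14.94 and 14.92 with GLE1 siRNA and 14.85, 14.70 and 14.72 with IPPK siRNA. Every knock-down array lay above every control array. The ratio to control was 4.29 ± 0.131 with DBP5 siRNA (SD, n = 3; adjusted p = 4.1e-09), 4.47 ± 0.306 with GLE1 siRNA (adjusted p = 1.2e-09) and 3.82 ± 0.229 with IPPK siRNA (adjusted p = 4.6e-09). GLE1 siRNA exceeded IPPK siRNA by 0.23 and DBP5 siRNA exceeded it by 0.17 (adjusted p = 0.0097 and 0.046). EIF3L is read by 1 probe. So is each of EIF3A, EIF3J, EIF5B, EIF2S1, EIF4A2, EIF5A, EIF5A2, EEF1A2, ETF1 and GSPT1, among others given below.

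EIF3A, the large scaffold subunit, went the other way in the GLE1 knock-down. EIF3A read 15.89, 15.74 and 15.84 on the control arrays, 15.37, 15.09 and 15.39 with DBP5 siRNA, 13.78, 13.77 and 13.71 with GLE1 siRNA and 15.71, 15.76 and 15.79 with IPPK siRNA. GLE1 siRNA arrays stood far below all others and IPPK siRNA arrays overlapped control. The ratio to control was 0.239 ± 0.00698 with GLE1 siRNA (adjusted p = 6.5e-09), 0.691 ± 0.0780 with DBP5 siRNA (adjusted p = 2.1e-04) and 0.954 ± 0.0283 with IPPK siRNA (adjusted p = 0.51). GLE1 siRNA minus DBP5 siRNA was -1.53 and GLE1 minus IPPK siRNA -2.00 (adjusted p = 9.9e-08 and 1.2e-08). On the 3 slides GLE1 siRNA minus control was -2.10, -1.96 and -2.13.

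EIF3C, a core subunit next to EIF3A, rose by 0.75 with GLE1 siRNA (adjusted p = 5.6e-08) and by 0.25 with IPPK siRNA (adjusted p = 2.8e-04), and was at 0.03 with DBP5 siRNA. EIF3C has a near-identical copy, EIF3CL, which its probes may also read, so this value is uncertain as to the gene. Its dimmer probe gave -0.32, 1.04 and 0.27 with DBP5, GLE1 and IPPK siRNA.

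EIF3J and the non-coding transcript EIF3J-DT, which start from opposite strands of one promoter, moved in opposite directions. EIF3J encodes the loosely bound subunit that sits near the decoding site. EIF3J read 10.48, 10.61 and 10.42 on the control arrays, 11.50, 11.38 and 11.35 with DBP5 siRNA, 12.21, 12.37 and 12.29 with GLE1 siRNA and 11.52, 11.56 and 11.54 with IPPK siRNA. EIF3J-DT read 10.61, 10.54 and 10.58 on the control arrays, 9.96, 10.03 and 10.07 with DBP5 siRNA, 9.79, 9.68 and 9.70 with GLE1 siRNA and 9.27, 9.17 and 9.26 with IPPK siRNA. No knock-down array overlapped control for either transcript. The log2 difference of EIF3J was 0.91, 1.79 and 1.03 with DBP5, GLE1 and IPPK siRNA (adjusted p = 1.1e-06, 4.9e-09 and 3.7e-07). That of EIF3J-DT was -0.55, -0.85 and -1.34 (adjusted p = 6.6e-06, 1.6e-07 and 1.1e-08). The order of the siRNAs differed between the partners: EIF3J was highest with GLE1 siRNA, above IPPK siRNA by 0.75 (adjusted p = 3.2e-06), while EIF3J-DT was lowest with IPPK siRNA, GLE1 siRNA lying above it by 0.49 (adjusted p = 1.3e-05).

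The bases between the start sites of the pair are printed because both transcripts leave from them. They are the 223 bases at chr15:44536924-44537146 of GRCh38.p14 in RefSeq, plus strand, with EIF3J-DT starting to the left and EIF3J to the right. EIF3J-DT has a further annotated start to the left, not used here. Capitals mark the letters GGGCGG, the GC box, or CCGCCC, its other strand.
EIF3J-DT/EIF3J: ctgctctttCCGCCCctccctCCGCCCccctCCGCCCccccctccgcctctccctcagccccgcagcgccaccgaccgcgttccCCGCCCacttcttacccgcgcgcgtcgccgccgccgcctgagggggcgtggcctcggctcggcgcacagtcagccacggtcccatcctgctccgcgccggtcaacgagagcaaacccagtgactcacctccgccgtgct
The stretch is 74.9% G and C and holds 4 GC boxes, none overlapping. Of all 35116 promoter entries in the table, 41.4% hold at least 1 in as many bases before the start, and 6.82% hold 4 or more. The match is a description of these letters.

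**Figure D2:**
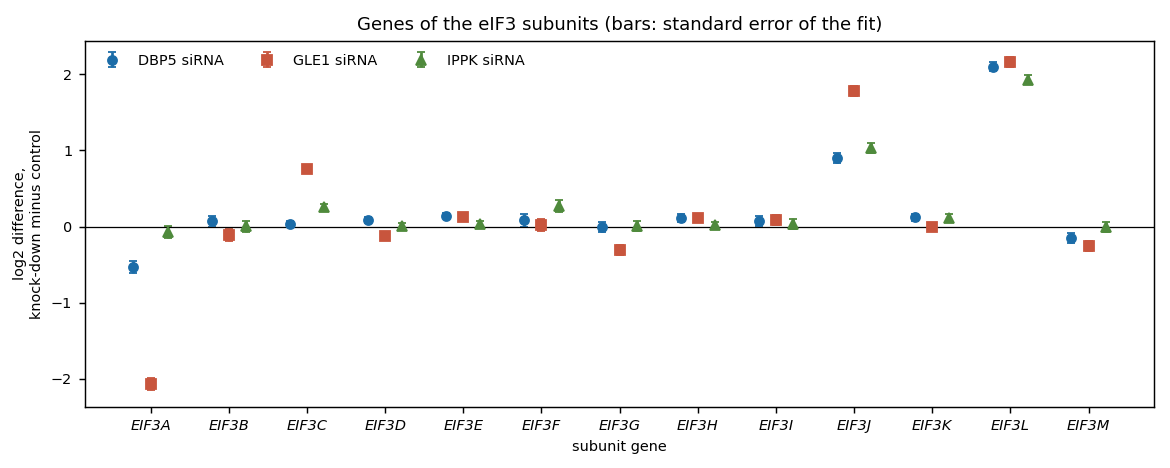
Log2 difference of each eIF3 subunit gene, knock-down minus control (y axis), with the standard error of the limma fit as bars and 1 symbol per siRNA. EIF3L and EIF3J rise with every siRNA, EIF3A falls to -2.07 with GLE1 siRNA, and the other subunits except EIF3C stay within -0.31 and 0.27.

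Start codon recognition genes, 10 tested members for eIF1, eIF1A, eIF2, eIF5 and eIF5B and their relatives, were lower in 3, 5 and 4 cases and higher in 1, 1 and 2 with DBP5, GLE1 and IPPK siRNA. EIF5B, the GTPase that joins the large subunit, had the largest change of the 10. EIF5B read 11.03, 11.06 and 11.24 on the control arrays, 10.99, 11.19 and 11.23 with DBP5 siRNA, 9.93, 9.84 and 9.85 with GLE1 siRNA and 9.69, 9.77 and 9.72 with IPPK siRNA. The DBP5 siRNA arrays overlapped control, and the arrays of the other 2 knock-downs lay more than 1 log2 unit below. The ratio to control was 1.02 ± 0.0880 with DBP5 siRNA (adjusted p = 0.81), 0.423 ± 0.0141 with GLE1 siRNA (adjusted p = 1.6e-07) and 0.382 ± 0.0107 with IPPK siRNA (adjusted p = 1.2e-07). DBP5 minus IPPK siRNA was 1.41 and GLE1 minus DBP5 siRNA -1.27 (adjusted p = 2.0e-07 and 2.5e-07).

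EIF2S1 encodes the alpha subunit of eIF2, the target of the stress kinases. EIF2S1 read 12.16, 12.26 and 12.14 on the control arrays, 11.25, 11.15 and 11.29 with DBP5 siRNA, 11.60, 11.63 and 11.55 with GLE1 siRNA and 12.21, 12.29 and 12.31 with IPPK siRNA. It fell by 0.96 with DBP5 siRNA and by 0.59 with GLE1 siRNA (adjusted p = 2.4e-07 and 4.6e-06), and IPPK siRNA arrays overlapped control (0.08, adjusted p = 0.24). DBP5 minus IPPK siRNA was -1.04 (adjusted p = 2.2e-07). EIF2S2, the beta subunit, was at -0.02, -0.12 and 0.42 with DBP5, GLE1 and IPPK siRNA (adjusted p = 0.85, 0.25 and 0.0015).

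EIF5, whose protein triggers GTP hydrolysis on eIF2, was lowest with DBP5 siRNA. EIF5 read 8.38, 8.61 and 8.35 on the control arrays, 7.73, 7.53 and 7.55 with DBP5 siRNA, 8.08, 8.21 and 8.29 with GLE1 siRNA and 8.44, 8.39 and 8.42 with IPPK siRNA. It fell by 0.84 with DBP5 siRNA and by 0.25 with GLE1 siRNA (adjusted p = 1.1e-05 and 0.022), and GLE1 siRNA was above DBP5 siRNA by 0.59 (adjusted p = 1.5e-04). EIF1AX, the scanning factor eIF1A, fell with IPPK siRNA by 0.63 (adjusted p = 2.1e-06), rose with DBP5 siRNA by 0.14 (adjusted p = 0.034) and was at 0.10 with GLE1 siRNA (adjusted p = 0.11). EIF1AY, a Y-linked copy nearly identical to EIF1AX, was among the 4 largest falls with IPPK siRNA. Its probe may read EIF1AX, and its values are not given. EIF1AY is counted in the start codon group, the initiation class and the tested members. Their counts and medians may thus hold EIF1AX more than once. EIF1, which guards start codon choice, rose by 0.25 with GLE1 siRNA (adjusted p = 0.0046), and its relative EIF1B was at -0.34, -0.19 and -0.42 (adjusted p = 0.0016, 0.035 and 4.2e-04, with 0.052 for GLE1 siRNA once the slide is a block).

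The eIF2B genes encode the 5 subunits of the exchange factor that reloads eIF2 with GTP. EIF2B5, the catalytic subunit, rose with each siRNA, from 10.71, 10.68 and 10.69 on the control arrays to 11.24, 11.52 and 11.37 with DBP5 siRNA, 11.31, 11.27 and 11.17 with GLE1 siRNA and 11.27, 11.42 and 11.42 with IPPK siRNA. The differences were 0.68, 0.55 and 0.68 (adjusted p = 2.1e-05, 7.3e-05 and 2.3e-05). EIF2B1, the alpha subunit, rose by 0.35 with DBP5 siRNA and fell by 0.39 with GLE1 siRNA (adjusted p = 6.7e-04 and 2.6e-04), and GLE1 minus DBP5 siRNA was -0.74 (adjusted p = 2.9e-06). EIF2B4 took the same signs at 0.28 and -0.19 (adjusted p = 0.0080 and 0.049). EIF2B3 fell by 0.19 with DBP5 siRNA and 0.37 with IPPK siRNA, and EIF2B2 passed against control in no comparison (-0.14, 0.11 and 0.14).

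The cap complex brings the mRNA to the ribosome through the cap-binding eIF4E, the scaffold eIF4G, the helicase eIF4A and the poly(A)-binding proteins. Of 12 tested genes, 2, 0 and 1 were lower and 7, 9 and 6 higher with DBP5, GLE1 and IPPK siRNA. The helicase genes EIF4A1 and EIF4A2, whose proteins are close relatives, parted under DBP5 siRNA. EIF4A1 read 15.93, 15.87 and 15.97 on the control arrays, 15.20, 15.19 and 15.10 with DBP5 siRNA, 16.14, 16.02 and 16.05 with GLE1 siRNA and 16.10, 16.04 and 16.06 with IPPK siRNA. EIF4A2 read 14.10, 14.14 and 14.07 on the control arrays, 14.80, 14.70 and 14.71 with DBP5 siRNA, 15.20, 15.15 and 15.11 with GLE1 siRNA and 14.36, 14.16 and 14.19 with IPPK siRNA. DBP5 siRNA put every EIF4A1 array below control and every EIF4A2 array above it.

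EIF4A1 was at 0.591 ± 0.0220 of control with DBP5 siRNA (adjusted p = 6.2e-07), and GLE1 and IPPK siRNA were both at a log2 difference of 0.14 (adjusted p = 0.030 and 0.034). These rises lost their call in 11 and 10 of 25 alternative settings, quantile normalization among them. GLE1 minus DBP5 siRNA was 0.90 and DBP5 minus IPPK siRNA -0.90 (adjusted p = 1.8e-07 and 3.1e-07). EIF4A2 rose to 1.55 ± 0.0611 with DBP5 siRNA and 2.07 ± 0.0603 with GLE1 siRNA (adjusted p = 8.3e-06 and 1.1e-07), and was at 0.13 with IPPK siRNA (adjusted p = 0.090). EIF4A3, the related helicase of the exon junction complex, fell in each knock-down, to -0.29, -0.48 and -0.24 (adjusted p = 0.0020, 4.4e-05 and 0.0059).

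The cap-binding genes differed by siRNA as well. EIF4E read 12.37, 12.32 and 12.35 on the control arrays, 13.02, 13.01 and 12.96 with DBP5 siRNA, 12.64, 12.57 and 12.59 with GLE1 siRNA and 12.76, 13.00 and 13.04 with IPPK siRNA, so that every knock-down array lay above control. It rose by 0.65, 0.25 and 0.59 with DBP5, GLE1 and IPPK siRNA (adjusted p = 1.8e-05, 0.0089 and 3.8e-05), and the mean of its 3 probes gave 0.94, 0.84 and 0.95. Its dimmest probe, on another transcript accession, was at 1.52, 1.84 and 1.47, so that the order of the siRNAs turned on the probe. The rise with GLE1 siRNA was lost with normexp on the median spot signal with an offset of 50 (0.19, adjusted p = 0.14) and in the authors' values, which have no background subtraction (0.18, adjusted p = 0.17). EIF4E2, a relative known for repressing capped mRNAs, read 14.81, 14.84 and 14.82 on the control arrays, 14.32, 14.33 and 14.35 with DBP5 siRNA, 14.90, 14.84 and 14.89 with GLE1 siRNA and 15.82, 15.81 and 15.79 with IPPK siRNA. DBP5 siRNA arrays lay below control, IPPK siRNA arrays above it, and GLE1 siRNA arrays overlapped it. EIF4E2 fell to 0.712 ± 0.00772 of control with DBP5 siRNA (adjusted p = 2.2e-06), rose to 1.97 ± 0.0190 with IPPK siRNA (adjusted p = 1.4e-08) and was at 1.04 ± 0.0227 with GLE1 siRNA. These are values of its brightest probe, and its dimmest probe fell with IPPK siRNA (log2 -0.42, adjusted p = 6.1e-05) and was at -0.45 with GLE1 siRNA. DBP5 minus IPPK siRNA was -1.47, the largest difference of a member in this comparison (adjusted p = 5.2e-09), and -0.77 with the mean of its 3 probes. EIF4E3 rose by 0.29 and 0.24 with DBP5 and GLE1 siRNA and was at -0.16 with IPPK siRNA (adjusted p = 0.010, 0.025 and 0.13).

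The scaffold genes EIF4G2 and EIF4G3 rose with DBP5 and GLE1 siRNA. EIF4G2, which lacks the site for eIF4E, differed by 0.66, 0.93 and 0.19 (adjusted p = 3.5e-06, 1.6e-07 and 0.015) and EIF4G3 by 0.72, 0.64 and -0.12 (adjusted p = 9.1e-06, 1.5e-05 and 0.19). EIF4G1, the main scaffold, read 13.25, 13.05 and 13.21 on the control arrays, 13.12, 13.34 and 13.37 with DBP5 siRNA, 13.44, 13.34 and 13.34 with GLE1 siRNA and 12.82, 12.84 and 12.93 with IPPK siRNA, and the DBP5 siRNA arrays overlapped control. It fell by 0.31 with IPPK siRNA (adjusted p = 0.0067), and its rise of 0.20 with GLE1 siRNA (adjusted p = 0.044) was lost with the slide as a block (adjusted p = 0.053). EIF4B, a helper of the helicase, rose by 0.24 with DBP5 and with IPPK siRNA (adjusted p = 0.0081 and 0.0084) and was at -0.12 with GLE1 siRNA. EIF4H, its relative, passed nowhere against control without the block, at -0.17, -0.14 and 0.05; with it, DBP5 and GLE1 siRNA passed (adjusted p = 0.016 and 0.037).

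PABPC4 rose with each siRNA, by 0.35, 0.57 and 0.51 (adjusted p = 3.3e-04, 6.7e-06 and 2.2e-05), from 14.49, 14.47 and 14.54 on the control arrays. PABPC1, the main cytoplasmic poly(A)-binding protein, was at 0.13, 0.23 and -0.11 (adjusted p = 0.18, 0.023 and 0.24). Its call with GLE1 siRNA was lost under quantile normalization (0.12, adjusted p = 0.12), without control replicate 1 (0.18, adjusted p = 0.091) or 2 and without GLE1 siRNA replicate 2 or 3 (adjusted p = 0.063 to 0.091 in these 4 fits). A call was gained with DBP5 siRNA without control replicate 3 (0.20, adjusted p = 0.045) and with IPPK siRNA at 75th percentile scaling (-0.22, adjusted p = 0.046). EIF6, which keeps the large subunit free, fell by 0.28 with DBP5 siRNA (adjusted p = 0.0017) and was at 0.12 and -0.10 with GLE1 and IPPK siRNA.

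**Figure D3:**
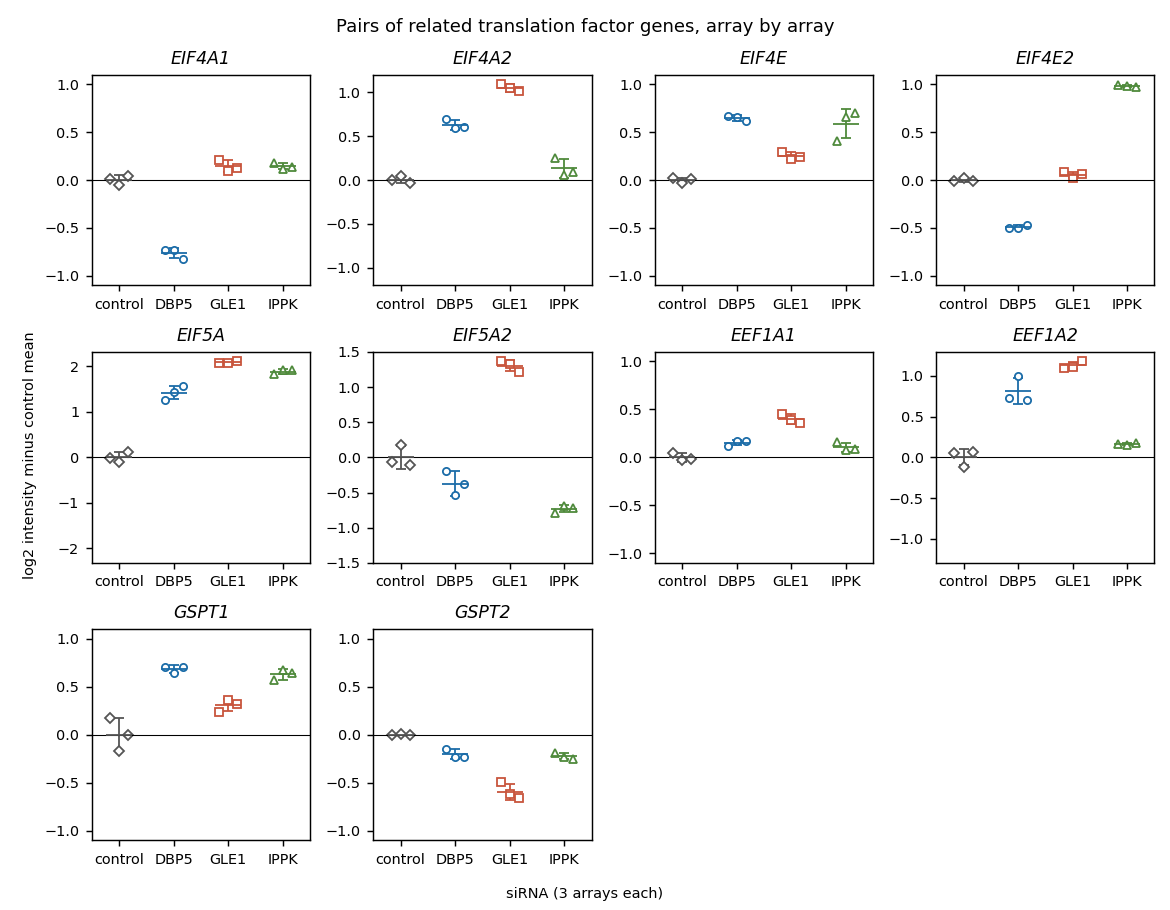
Log2 intensity minus the control mean (y axis, scales differ between panels) on each of the 12 arrays for pairs of related genes, with group means and SD as bars. DBP5 siRNA arrays lie below control for EIF4A1 and above it for EIF4A2, and EIF5A2 rises with GLE1 siRNA and falls with the other siRNAs.

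Elongation genes were led by a rise of EIF5A in each knock-down. Of the 10 tested, 1, 0 and 1 were lower and 5, 7 and 2 higher with DBP5, GLE1 and IPPK siRNA. EIF5A encodes the hypusine-bearing factor that helps ribosomes through difficult peptide bonds and in termination. EIF5A read 11.19, 11.12 and 11.33 on the control arrays, 12.48, 12.64 and 12.78 with DBP5 siRNA, 13.30, 13.29 and 13.32 with GLE1 siRNA and 13.03, 13.12 and 13.13 with IPPK siRNA. All knock-down arrays lay at least 1 log2 unit above the control arrays. The ratio to control was 2.68 ± 0.277, 4.25 ± 0.0450 and 3.68 ± 0.131 with DBP5, GLE1 and IPPK siRNA (adjusted p = 1.7e-07, 5.7e-09 and 2.0e-08), and GLE1 siRNA exceeded DBP5 siRNA by 0.67 (adjusted p = 3.8e-05).

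Its paralog EIF5A2 changed in another pattern. EIF5A2 read 9.24, 9.49 and 9.19 on the control arrays, 9.11, 8.77 and 8.92 with DBP5 siRNA, 10.67, 10.64 and 10.52 with GLE1 siRNA and 8.52, 8.62 and 8.59 with IPPK siRNA. GLE1 siRNA arrays were highest and IPPK siRNA arrays lowest and no groups overlapped. The log2 difference was -0.37, 1.30 and -0.73 with DBP5, GLE1 and IPPK siRNA (adjusted p = 0.0087, 9.0e-07 and 1.1e-04). GLE1 siRNA exceeded DBP5 siRNA by 1.68 and IPPK siRNA by 2.03, the largest gaps of any member in both comparisons, the second close to that of EIF3A (adjusted p = 2.4e-07 and 4.4e-08). EIF5AL1, a near-identical copy of EIF5A whose probe may share target with it, was at 0.11, 0.28 and -0.01 and did not pass (adjusted p = 0.65, 0.19 and 0.98). With the slide as a block GLE1 siRNA passed for EIF5AL1 (adjusted p = 0.0091).

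The eEF1A genes, which encode the carrier of aminoacyl-tRNA, were highest with GLE1 siRNA. EEF1A2, the isoform of muscle and neurons, read 15.35, 15.19 and 15.36 on the control arrays, 16.03, 16.29 and 16.00 with DBP5 siRNA, 16.40, 16.41 and 16.48 with GLE1 siRNA and 15.47, 15.45 and 15.48 with IPPK siRNA. It was at 1.75 ± 0.199, 2.19 ± 0.0644 and 1.12 ± 0.0114 of control (adjusted p = 9.1e-06, 4.5e-07 and 0.10), and GLE1 minus DBP5 siRNA was 0.32 (adjusted p = 0.0056). EEF1A1, the common isoform, differed by 0.15, 0.40 and 0.11 (adjusted p = 0.020, 2.8e-05 and 0.080), and GLE1 minus DBP5 siRNA was 0.25 (adjusted p = 0.0011). Its rise with DBP5 siRNA was lost in 12 of 25 alternative settings, among them 75th percentile scaling, quantile normalization and the mean of its 5 probes. Many processed copies of EEF1A1 exist, so its probes may read more than this gene. Of the exchange factor genes, EEF1D rose by 0.31, 0.25 and 0.28 (adjusted p = 0.0013, 0.0048 and 0.0030), EEF1B2 by 0.25 with GLE1 siRNA (adjusted p = 0.0018), and EEF1G passed nowhere against control (0.09, 0.08 and -0.14).

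EEF2, the translocase, was higher with GLE1 siRNA. EEF2 read 15.41, 15.27 and 15.22 on the control arrays, 15.33, 15.62 and 15.00 with DBP5 siRNA, 15.96, 15.87 and 15.80 with GLE1 siRNA and 15.35, 15.26 and 15.32 with IPPK siRNA. DBP5 siRNA arrays were spread on both sides of control, and GLE1 siRNA arrays stood above. GLE1 siRNA was at 1.49 ± 0.0854 of control (adjusted p = 0.0025), above DBP5 siRNA by 0.56 and IPPK siRNA by 0.57 (adjusted p = 0.0036 and 0.0030). EEFSEC, which delivers selenocysteine, rose with DBP5 siRNA by 0.47 (adjusted p = 0.0064), and its rise of 0.22 with IPPK siRNA passed only with the slide as a block (adjusted p = 0.15 without it and 0.039 with it).

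Many elongation factor mRNAs are TOP mRNAs, which begin with a C and a run of pyrimidines and are translated under the control of mTOR and LARP1. The 30 bases around the RefSeq start (GRCh38.p14), 15 before and 15 from it on, are shown for EEF1A1 and EEF2, which rose with GLE1 siRNA, and for the pair that parted under DBP5 siRNA, EIF4A2 and EIF4A1. Capitals mark the C at the start and the pyrimidines that follow it, where at least 4 follow.
EEF1A1 (chr6:73521018-73521047, minus strand): gtcgccgtgaacgttCTTTTTCgcaacggg
EEF2 (chr19:3985449-3985478, minus strand): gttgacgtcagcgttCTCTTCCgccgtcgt
EIF4A2 (chr3:186783562-186783591, plus strand): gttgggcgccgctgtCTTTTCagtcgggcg
EIF4A1 (chr17:7572810-7572839, plus strand): aggcgggcactccgccctagtttctaagga
Of 55 tested members with an entry in the promoter table, 11 (20.0%) had such a start at an annotated site, against 5.14% of all 27305 genes with an entry. These 27305 include genes that were not tested on the arrays. They are EEF1A1, EEF1B2, EEF2, EIF2A, EIF2D, EIF3D, EIF3F, EIF3K, EIF3M, EIF4A2 and EIF4B. The table gave no entry for EEF1A2, EEF1AKMT3, EEF1D, EEF2KMT, EIF2S2, EIF3A, EIF3E, EIF3G, EIF3H, EIF3L, EIF4EBP1, PABPC1 and PABPC4.

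Of the 11 members with a TOP start, 3 were lower and 4 higher with GLE1 siRNA, near the shares over all genes (30.4% and 32.0%). The 11 genes were lower in 0, 3 and 0 cases and higher in 3, 4 and 3 with DBP5, GLE1 and IPPK siRNA, with a median of 0.09, 0.00 and 0.11. The other 44 members with an entry were lower in 15, 12 and 13 cases and higher in 17, 16 and 14, with a median of 0.05, 0.07 and 0.00. A list of 12 TOP mRNAs known from the literature (EEF1A1, EEF1A2, EEF1B2, EEF1D, EEF1G, EEF2, EIF3A, EIF3E, EIF3F, EIF3H, EIF4B and PABPC1) was lower in 1, 1 and 0 cases and higher in 5, 7 and 3. Its median was 0.12, 0.18 and 0.06, beside 0.07, 0.04 and 0.02 over the other 56 members. Both lists were drawn up with results of these data known.

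The 4 termination and recycling genes were lower in 1, 2 and 1 cases and higher in 2, 2 and 2 with DBP5, GLE1 and IPPK siRNA. Of all genes 27.1%, 30.4% and 28.2% were lower and 27.3%, 32.0% and 27.3% higher. ETF1 encodes eRF1, which reads the stop codon. ETF1 read 11.74, 11.70 and 11.64 on the control arrays, 11.55, 11.67 and 11.43 with DBP5 siRNA, 10.29, 11.28 and 11.16 with GLE1 siRNA and 11.84, 12.05 and 12.05 with IPPK siRNA. All GLE1 siRNA arrays lay below control, but replicate 1 stood far under the other 2. GLE1 siRNA was at 0.581 ± 0.200 of control (log2 -0.78, adjusted p = 0.0077), and at log2 -0.47 without its replicate 1 (adjusted p = 0.0015). The paired test by slide, an alternative, did not call this fall (unadjusted p = 0.14). DBP5 and IPPK siRNA were at -0.15 and 0.29 (adjusted p = 0.61 and 0.28), and GLE1 minus IPPK siRNA was -1.07 (adjusted p = 0.0012). After adjustment the paired test by slide did not call the difference of GLE1 and IPPK siRNA. Without GLE1 siRNA replicate 1 the rise with IPPK siRNA passed the test (adjusted p = 0.015).

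GSPT1 and GSPT2 encode the 2 forms of eRF3, the GTPase that works with eRF1, and they moved in opposite directions. GSPT1 read 10.00, 9.65 and 9.83 on the control arrays, 10.53, 10.46 and 10.53 with DBP5 siRNA, 10.06, 10.18 and 10.15 with GLE1 siRNA and 10.39, 10.50 and 10.47 with IPPK siRNA. GSPT2 read 11.25, 11.26 and 11.24 on the control arrays, 11.10, 11.01 and 11.02 with DBP5 siRNA, 10.75, 10.62 and 10.59 with GLE1 siRNA and 11.06, 11.02 and 10.99 with IPPK siRNA. Knock-down arrays lay above control for GSPT1 and below it for GSPT2. GSPT1 rose by 0.68, 0.31 and 0.63 (adjusted p = 3.4e-05, 0.0061 and 6.2e-05). Slide by slide its rise with GLE1 siRNA was 0.07, 0.53 and 0.32, and the paired test by slide did not call it (unadjusted p = 0.15). GSPT2 was at -0.20, -0.59 and -0.22 (adjusted p = 0.0069, 2.8e-06 and 0.0041). GLE1 minus DBP5 siRNA was -0.38 for GSPT1 (adjusted p = 0.0022) and -0.39 for GSPT2 (adjusted p = 9.8e-05), and GLE1 minus IPPK siRNA was -0.32 and -0.37 (adjusted p = 0.0051 and 1.2e-04).

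ABCE1, the ATPase that splits the subunits after termination, rose with each siRNA. ABCE1 read 11.70, 11.58 and 11.71 on the control arrays, 12.33, 12.36 and 12.20 with DBP5 siRNA, 12.46, 12.50 and 12.48 with GLE1 siRNA and 12.63, 12.64 and 12.62 with IPPK siRNA. No array of a knock-down reached down to control. It was at 1.55 ± 0.0882, 1.76 ± 0.0236 and 1.95 ± 0.0150 of control (adjusted p = 3.9e-06, 3.3e-07 and 1.6e-07), and IPPK siRNA was above DBP5 siRNA (DBP5 minus IPPK -0.33, adjusted p = 4.9e-04). Its second probe gave 0.34, 0.33 and 0.70.

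**Figure D4:**
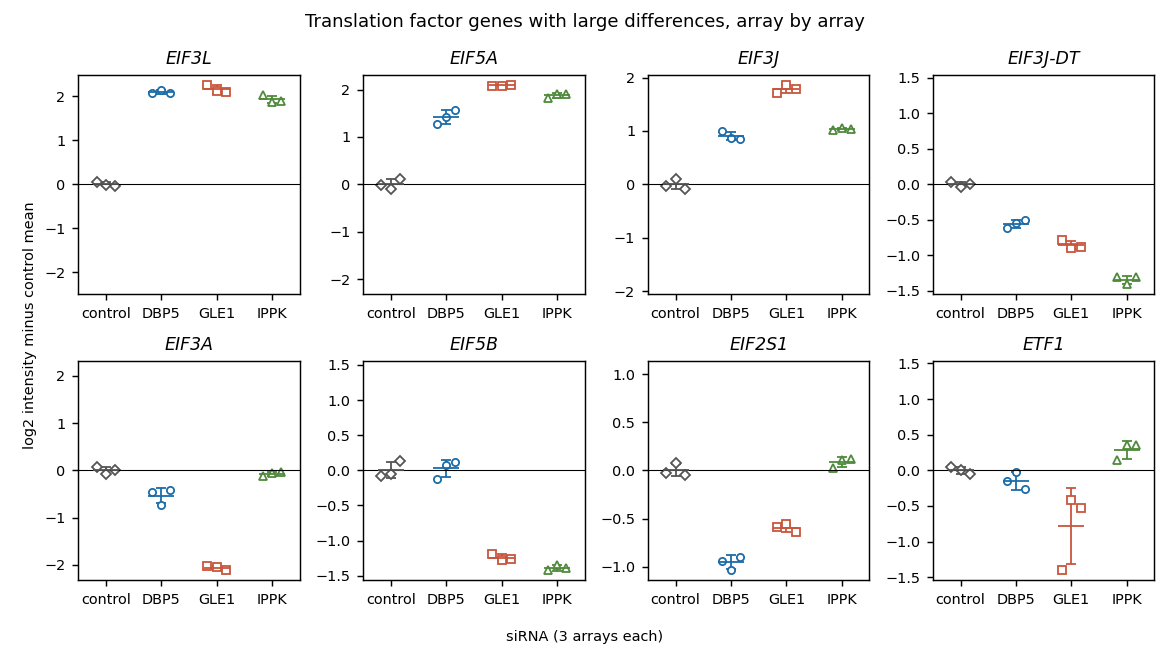
Log2 intensity minus the control mean (y axis, scales differ between panels) on each of the 12 arrays for 8 members, with group means and SD as bars. EIF3L and EIF5A are above control on all 9 knock-down arrays, EIF3J rises where EIF3J-DT falls, and 1 GLE1 siRNA array of ETF1 stands apart at about -1.4.

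The 13 tested regulators and other genes were lower in 8, 5 and 7 cases and higher in 5, 3 and 4, beside 27.1%, 30.4% and 28.2% of all genes lower and 27.3%, 32.0% and 27.3% higher. All 13 passed with DBP5 siRNA. EIF1AD, a nuclear protein with an eIF1A-like domain, read 13.31, 13.27 and 13.36 on the control arrays, 12.19, 12.40 and 12.27 with DBP5 siRNA, 12.14, 12.20 and 12.17 with GLE1 siRNA and 12.81, 12.84 and 12.79 with IPPK siRNA. All knock-down arrays lay below control. EIF1AD fell by 1.03, 1.14 and 0.50 with DBP5, GLE1 and IPPK siRNA (adjusted p = 1.7e-07, 3.8e-08 and 3.0e-05). EEF1AKMT2, a methyltransferase of eEF1A, fell by 1.06, 0.83 and 0.29 (adjusted p = 2.6e-07, 8.5e-07 and 0.0027), and EEF1AKMT3, another, by 0.72, 0.46 and 0.54 (adjusted p = 2.2e-06, 4.5e-05 and 1.7e-05). Of the eIF4E inhibitors, EIF4EBP1 was at -0.37, 0.06 and -0.39 (adjusted p = 6.8e-04, 0.47 and 4.6e-04) and EIF4EBP2 at 0.62, 0.44 and 0.44 on its brighter probe (adjusted p = 6.1e-05, 5.5e-04 and 6.7e-04), while its dimmer probe was at -0.40 with DBP5 siRNA, the side of EIF4EBP1. EEF2K, the kinase that inhibits eEF2, was at 0.43, 0.05 and -0.20 (adjusted p = 0.0046, 0.70 and 0.13), and IPPK siRNA passed with the slide as a block (adjusted p = 0.045). EEF1E1, a scaffold of the tRNA synthetase complex, was at -0.34, -0.21 and -0.38 (adjusted p = 0.015, 0.093 and 0.0084), and GLE1 siRNA passed with the slide as a block (adjusted p = 0.036). EIF4ENIF1, which carries eIF4E to P-bodies and the nucleus, was at 0.24, 0.03 and 0.40 (adjusted p = 0.013, 0.71 and 5.5e-04).

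EEF1AKMT4 and the readthrough transcript EEF1AKMT4-ECE2 share a locus and differed. EEF1AKMT4, a further methyltransferase of eEF1A, was at -0.70, -0.03 and 0.26 (adjusted p = 7.1e-06, 0.73 and 0.0057). EEF1AKMT4-ECE2 read 6.24, 6.07 and 6.25 on the control arrays, 6.71, 7.10 and 7.22 with DBP5 siRNA, 7.30, 7.37 and 7.30 with GLE1 siRNA and 7.57, 7.75 and 7.55 with IPPK siRNA. Every knock-down array lay above every control array. Its difference was 0.82, 1.14 and 1.44 (adjusted p = 1.4e-04, 8.9e-06 and 2.2e-06). Its differences with DBP5 and IPPK siRNA were 0.47 and 0.89 with normexp on the median spot signal with an offset of 50, and 0.48 and 0.87 in the authors' values, which rest on that signal without background subtraction. The parts of signal, background and offset in this drop were not separated here. Readthrough transcripts share exons with their parent genes, so its probe may read ECE2 as well.

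The knock-downs were also compared with each other, which leaves the control arrays out of the difference. Of the 68 members 18 were lower and 25 higher with GLE1 than with DBP5 siRNA, against 27.2% and 27.7% of all genes. Between GLE1 and IPPK siRNA 24 were lower and 25 higher, against 29.6% and 31.2%. Between DBP5 and IPPK siRNA 18 were lower and 20 higher, against 24.4% and 24.7%. The member shares were 26.5% and 36.8%, 35.3% and 36.8%, and 26.5% and 29.4%. All 4 termination and recycling genes were lower with GLE1 than with IPPK siRNA, ABCE1 by the least (-0.15, adjusted p = 0.038, and 0.052 with the slide as a block). EIF5A2, EIF3A and EIF5B led the first comparison, EIF5A2, EIF3A and ETF1 the second, and EIF4E2, EIF5B and EIF2S1 the third. The place of ETF1 rested on GLE1 siRNA replicate 1: without it ETF1 was at -0.76, behind EEF1A2 (0.98), EIF4E2 (-0.94), EIF4A2 (0.90) and EIF3J (0.79), with EIF1AY left out of these lists.

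Of the 70 members 20 have more than 1 probe, and probes of a gene were compared where they passed the filter. Over the 19 genes with more than 1 such probe, all probes had the same call for 10, 11 and 9 genes with DBP5, GLE1 and IPPK siRNA against control, and for 11, 15 and 13 in the comparisons of GLE1 with DBP5, GLE1 with IPPK and DBP5 with IPPK siRNA. All 3 probes of EIF4A1 fell with DBP5 siRNA (-0.76, -0.78 and -1.03), and all 5 probes of EEF1A1 rose with GLE1 siRNA, by 0.38 to 0.51. Probes of opposite calls were found against control for EIF4EBP2 with DBP5 siRNA and for EIF4E2 and EEF2KMT with IPPK siRNA. The dimmer EIF4EBP2 probe was at -0.40, 0.34 and 0.27 with DBP5, GLE1 and IPPK siRNA. Of the EIF4E2 probes, the 2 on the same transcript accession gave 0.98 and 0.89 with IPPK siRNA, while the third, on another transcript accession, was at 0.13, -0.45 and -0.42 with DBP5, GLE1 and IPPK siRNA.

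EIF4E has 3 probes, 2 on the same transcript accession and 1 on another. The dimmest, on the other accession, gave 1.52, 1.84 and 1.47 with DBP5, GLE1 and IPPK siRNA and the brightest 0.65, 0.25 and 0.59. Between GLE1 and DBP5 siRNA the calls of these probes were opposite (0.32 and -0.40, adjusted p = 0.0086 and 6.4e-04). They were opposite between GLE1 and IPPK siRNA as well. EEF2KMT, a methyltransferase of eEF2, was at 0.69, 0.34 and -0.19 on its brightest probe, and its other 3 probes ranged from -0.24 to 0.58 with IPPK siRNA. EEF1AKMT2 and EIF4E2 had opposite calls between GLE1 and DBP5 siRNA, and EIF4E2 between DBP5 and IPPK siRNA.

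**Figure D5:**
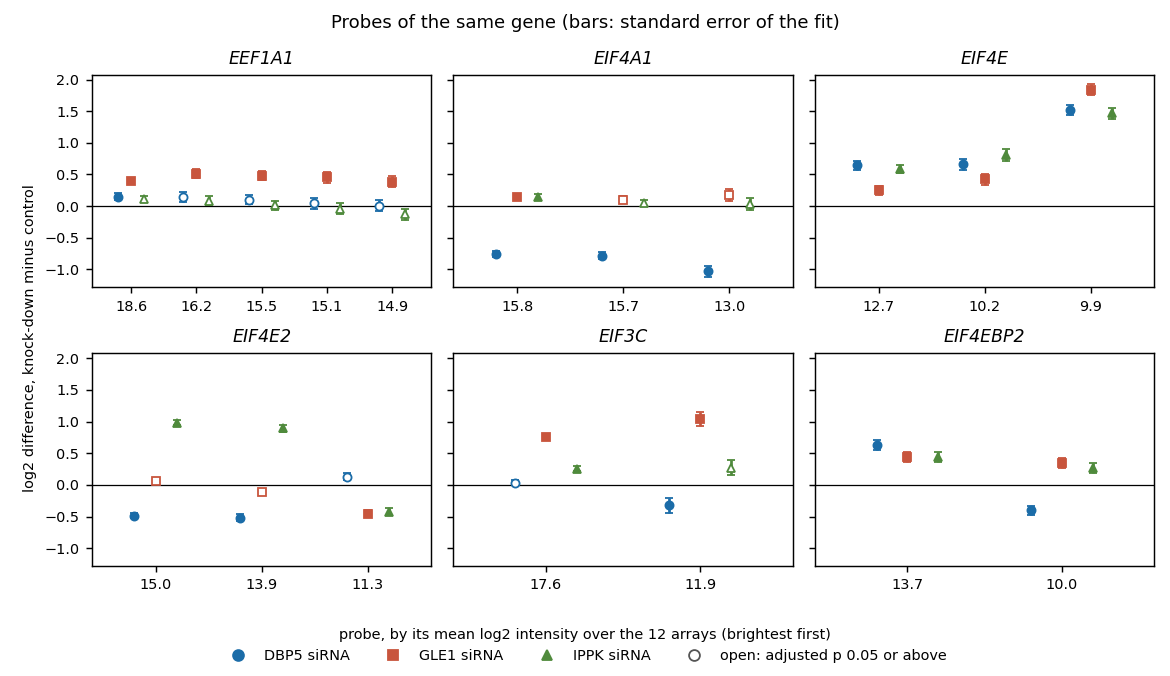
Log2 difference, knock-down minus control (y axis), of each probe of 6 members with more than 1 probe, ordered by mean log2 intensity (x axis), with the standard error of the fit as bars and open symbols at an adjusted p of 0.05 or above. Probes of EEF1A1 and EIF4A1 give close values, while 1 probe each of EIF4E, EIF4E2 and EIF4EBP2 lies apart from the rest.

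Other genes of the pathway that are not members were tested from a list of 35, of which 33 passed the filter. They were lower in 10, 6 and 6 cases and higher in 11, 15 and 8 with DBP5, GLE1 and IPPK siRNA, with a median of 0.03, 0.15 and 0.07, beside 27.1%, 30.4% and 28.2% of all genes lower and 27.3%, 32.0% and 27.3% higher. The genes named next were chosen after their values were seen. Of the 6 genes for kinases and phosphatase subunits of eIF2 alpha, 5, 1 and 1 were lower and 1, 2 and 1 higher with DBP5, GLE1 and IPPK siRNA. Lower with DBP5 siRNA was PPP1R15B, the constitutive phosphatase subunit, at -0.93, -0.61 and -0.10 (adjusted p = 8.7e-08, 9.7e-07 and 0.11), and higher was EIF2AK4, the sensor of uncharged tRNA, at 0.76, 0.27 and 0.36 (adjusted p = 5.9e-06, 0.0054 and 0.0012). LARP1, the binder of TOP mRNAs, was at -0.67, 0.09 and 0.43 (adjusted p = 3.0e-05, 0.35 and 7.0e-04) and RPTOR, a subunit of the mTOR complex, at 0.69, 0.47 and 1.12 (adjusted p = 2.5e-06, 3.2e-05 and 7.1e-08).

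PAIP1, a partner of poly(A)-binding protein that favours translation, was at 0.35, -1.25 and -0.90 (adjusted p = 0.018, 2.3e-06 and 4.3e-05). HBS1L, which frees stalled ribosomes with PELO, was at 0.06, 0.69 and 1.14 (adjusted p = 0.39, 8.7e-07 and 3.9e-08), and PELO passed nowhere against control. SECISBP2, which recruits EEFSEC to selenoprotein mRNAs, was at -0.12, 0.27 and -1.61 (adjusted p = 0.44, 0.074 and 1.0e-06). DOHH, the enzyme of the last step of hypusine formation on EIF5A, was at -0.59, 0.15 and -0.48 (adjusted p = 2.1e-05, 0.068 and 9.2e-05), and DHPS, the enzyme of the step before, passed nowhere against control (0.07, -0.13 and 0.12). TRMT112, the partner of the methyltransferase of eRF1, was at -0.16, -0.67 and 0.09 (adjusted p = 0.037, 2.5e-06 and 0.22), and its call with DBP5 siRNA was lost with the slide as a block (adjusted p = 0.052).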

How the data were processed

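RNA from the cytoplasm of U2OS cells was labelled with a whole-transcript kit and hybridised to 12 Agilent arrays in 1 colour, with 4 siRNAs of 3 arrays each. Per the file headers, the deposited intensities are Feature Extraction's processed signal, with local background subtracted. The log2 values in the authors' deposited table were normalized by LOESS regression, per the study's methods. On comparison with the scanner files that table follows the median spot signal without background subtraction, so it served as an alternative only. The array design names the hg19 build, and names and sequences come from RefSeq tables of GRCh38.p14.

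Control spots and the 169 to 358 outlier spots per array were left out. The log2 processed signal was normalized between arrays by cyclic loess, and spots of a probe were averaged. The brightest probe stood for each gene. Genes called well above background on each of the 3 arrays of some siRNA entered limma 3.58.1 (R 4.3.3), with 1 mean per siRNA over 12 arrays and Benjamini-Hochberg adjustment over all 20821 genes in each of 6 comparisons, two-sided, at 0.05. The fit was tested on simulated data. RefSeq named 77.5% of the 34127 probes. EIF2S3, EIF2S3B, EIF3CL, EIF4EBP3, EEF1AKNMT and EEF1E1-BLOC1S5 are not analysed here. The number of arrays limits the precision.

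The genes given in detail are 13 factors always named, the 4 largest falls and rises against control and the 3 largest differences between knock-downs among called genes whose arrays do not overlap, members below the filter or with probes of opposite calls, and paralogs of these. The other members stand beside them for their group. The members and lists were chosen with earlier results of these data known, and the search for start motifs was added after values were seen.

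The replicate number marks the slide. Over all genes, deviations from the group means correlated by 0.315 to 0.544 in the 18 pairs of arrays with the same number and by -0.333 to -0.016 in the 36 others, so the numbers pair the arrays. A fit with the slide as a block, other scalings and filters, the mean of probes, single arrays left out and a two-sided paired t-test were the alternatives. For its statistics in general the study names that test or an ANOVA with Dunnett's test, and for the arrays rank products. The pairing by slide was chosen here.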

Additional observations from a re-analysis of the deposited data

How the results depend on the processing

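Over 25 alternatives, the 66 results of named genes kept their call, or stayed without one, in 1574 cases. They lost the call in 68, gained it in 8, and reversed with a call in either fit in 0. A change of sign with no call in either fit counts among the 1574. Most losses lay in differences under 0.25 on the log2 scale, namely EIF4G1, EIF4A1, EEF1A1 and PABPC1 with the siRNAs given above. With the slide as a replicate block, EIF4G1 with GLE1 siRNA stayed at 0.20 and lost its call (adjusted p = 0.053 in place of 0.044), and no other result of these 66 changed its call. Counts of members under the block were 19 lower and 26 higher with DBP5 siRNA (29.2% and 28.6% of all genes in that fit), 19 and 27 with GLE1 siRNA (31.9% and 34.1%) and 16 and 22 with IPPK siRNA (30.5% and 29.1%).

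A t-test paired by slide gave 15 lower and 22 higher members with DBP5 siRNA at its unadjusted threshold, against 23.7% and 22.6% of all genes. After Benjamini-Hochberg adjustment it gave 11 lower and 11 higher with DBP5 siRNA against control (2563 and 2490 of all 20821 genes), 7 and 7 for GLE1 against DBP5 siRNA (13.0% and 12.8%), and 7 and 7 for DBP5 against IPPK siRNA (9.49% and 9.18%). By that test ETF1 (unadjusted p = 0.14) and GSPT1 (unadjusted p = 0.15) did not pass with GLE1 siRNA. Calls lost only after adjustment included ABCE1, EIF5, GSPT1, PABPC4 and EEF1AKMT4-ECE2 with DBP5 siRNA. They also included EIF4E, EIF4G1 and GSPT1 with IPPK siRNA, and ETF1 between GLE1 and IPPK siRNA.

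Class medians moved with the scaling. At the 75th percentile the initiation median was 0.044 with DBP5 siRNA and -0.039 with IPPK siRNA, and the elongation median 0.092 and -0.019, so that the sign with IPPK siRNA turned. Quantile normalization gave 0.020 for initiation with IPPK siRNA. The authors' values gave initiation medians of 0.045 with DBP5 siRNA and 0.0042 with GLE1 siRNA, and an elongation median of 0.24 with GLE1 siRNA. The cause was not tested. Leaving out 1 array at a time gave initiation medians of 0.061 to 0.10 with DBP5 siRNA and 0.036 to 0.057 with IPPK siRNA, elongation medians of 0.12 to 0.19 with DBP5 siRNA and 0.061 to 0.11 with IPPK siRNA, the lowest without IPPK siRNA replicate 1. With GLE1 siRNA it gave 0.029 to 0.078 for initiation and -0.18 to -0.066 for termination and recycling, where 0.029 and -0.066 are the values without GLE1 siRNA replicate 1. The 68 tested members were well above background on all 12 arrays, but normexp on the median spot signal with an offset of 50 removed the calls of EIF4E and EIF4A1 with GLE1 siRNA and of EEF1A1 with DBP5 siRNA. The authors' values, without background subtraction, removed these 3 calls too, and an offset of 50 alone that of EIF4A1, so background, signal and offset were not separated.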
